A study of Homo sapiens with 7 samples.

Results

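The HOX cluster genes are the rows of the deposited expression table whose symbol is HOXA, HOXB, HOXC or HOXD followed by a number, which gave 39 of 23710 genes. The cells were SNU398, an established line from a human hepatocellular carcinoma, in which the zinc finger protein SALL4 is made. Every culture received 30 µM of 1 peptide for 8 hours, and each of the 4 peptides, PEN-FFW, PEN-WT, PEN-MUT and PEN, has 1 RNA library. PEN is penetratin, a carrier that crosses cell membranes. As the study is known, PEN-WT adds the stretch of SALL4 that contacts RBBP4 in the chromatin complex NuRD, PEN-FFW an engineered form of that stretch, and PEN-MUT a mutated one. All 4 groups thus share the carrier, and no library of cells without peptide is analysed here. The question asked here was which HOX genes this line expresses and whether their levels differed between the peptides.

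HOX genes encode homeodomain transcription factors that give cells along the body axis their position. In mammals they lie in 4 clusters on different chromosomes. Their order along the DNA follows the order in which they are used from head to tail, so low-numbered (anterior) genes act in the hindbrain and high-numbered (posterior) genes in the trunk, the limbs and the urogenital tract. Polycomb complexes keep clusters silent, Trithorax proteins such as the MLL methyltransferases keep them active, retinoic acid induces them, and proteins of the TALE class (PBX, MEIS) bind DNA together with HOX proteins. Adult liver uses few of them, and several are expressed in carcinomas. Penetratin is itself derived from a homeodomain, that of the fruit fly HOX protein Antennapedia.

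Many HOX promoters are rich in CG dinucleotides, the sites of DNA methylation. The 250 bases before the RefSeq start site are shown for the most abundant HOX gene (HOXD13, chr2:176092471-176092720, plus strand), for the promoter with the most CG dinucleotides among genes that passed the filter below (HOXA13, chr7:27200092-27200341, minus strand) and for a pair of genes at the floor of the table (HOXA9, chr7:27165538-27165787, minus strand, and HOXD4, chr2:176151300-176151549, plus strand). Coordinates of these promoters are on GRCh38.p14. Capitals mark each CG dinucleotide, which reads the same on both strands.
HOXD13: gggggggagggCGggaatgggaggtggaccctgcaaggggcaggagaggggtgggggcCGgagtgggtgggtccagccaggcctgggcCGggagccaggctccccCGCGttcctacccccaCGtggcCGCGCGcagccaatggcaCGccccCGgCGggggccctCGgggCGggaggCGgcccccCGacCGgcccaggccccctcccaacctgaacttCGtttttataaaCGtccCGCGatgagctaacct
HOXA13: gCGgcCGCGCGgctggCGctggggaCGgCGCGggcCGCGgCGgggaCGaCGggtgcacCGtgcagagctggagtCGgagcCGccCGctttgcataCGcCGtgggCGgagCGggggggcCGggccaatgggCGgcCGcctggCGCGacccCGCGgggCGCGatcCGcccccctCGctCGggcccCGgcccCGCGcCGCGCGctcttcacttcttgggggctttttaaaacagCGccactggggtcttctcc
HOXA9: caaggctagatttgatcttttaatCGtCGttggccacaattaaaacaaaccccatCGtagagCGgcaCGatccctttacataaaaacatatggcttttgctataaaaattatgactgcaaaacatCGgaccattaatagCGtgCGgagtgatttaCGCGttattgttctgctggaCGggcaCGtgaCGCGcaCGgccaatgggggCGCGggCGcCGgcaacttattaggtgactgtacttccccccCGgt
HOXD4: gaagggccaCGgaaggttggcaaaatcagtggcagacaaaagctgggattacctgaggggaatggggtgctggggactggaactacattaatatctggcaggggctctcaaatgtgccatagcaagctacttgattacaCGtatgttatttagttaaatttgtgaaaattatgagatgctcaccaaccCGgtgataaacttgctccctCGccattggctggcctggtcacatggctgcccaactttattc
These windows held 21 CG dinucleotides for HOXD13, 40 for HOXA13, 20 for HOXA9 and 4 for HOXD4, against a median of 11 over 35116 RefSeq promoters of the same length, of which 93.9% held at least 1. Fewer CG dinucleotides than in HOXD13 were found in 69.8% of all promoters, fewer than in HOXA13 in 97.8%, fewer than in HOXA9 in 67.6% and fewer than in HOXD4 in 29.3%. RefSeq promoters were at hand for 20 of the 39 genes. The median was 23 (11 to 40) in the 9 of them that passed the filter on low values and 20.5 (4 to 26) in the 6 at the floor, so the ranges of the detected genes and of those at the floor overlapped.

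Reads assigned to genes above the floor numbered 27347377 in PEN-FFW, 40717633 in PEN-WT, 32043544 in PEN-MUT and 37784093 in PEN. Levels are normalized counts, the authors' values with the log2 undone, and no value was listed below 5. That floor stands for at most 5 reads in 3 libraries and 6 reads in PEN-WT. Differences are in log2(normalized count + 10), relative to the median of the 12578 genes with a mean of at least 50 (called compared genes below). With no replicate, no test was possible and no difference has a replicate check. The value after ± is the standard error from read counting alone, and each interval is the exact 95% counting interval of the plain ratio, without the added 10. Cultures vary by more than this, by an unknown amount. The 6 pairs of libraries share 4 libraries, so likenesses among pairs can come from 1 library. Of 18 hepatocyte and hepatocellular carcinoma markers, 6 were above the floor and 3 had a mean of at least 50, among them GPC3 (998 in PEN-FFW) and ALB (83.1 in PEN-FFW). AFP (7.8 in PEN-WT to 11 in PEN-MUT), APOA1 (8.3 in PEN-FFW to 18 in PEN-MUT) and APOA2 (5.5 in PEN-FFW) were above the floor but close to it. HNF4A, TTR, APOB, KRT8 and KRT18 were listed at the floor in every library. Above the floor means above it in at least 1 library. All 7 fibroblast and stellate markers were so, and 5 had a mean of at least 50, but at uneven levels. COL3A1 was at 72895 in PEN-FFW, 76726 in PEN-WT, 79779 in PEN-MUT and 76546 in PEN cells. COL1A1 was at 221 in PEN-FFW, 182 in PEN-WT, 156 in PEN-MUT and 127 in PEN cells. COL1A2 lay between 17.9 in PEN-WT and 30 in PEN-MUT. PDGFRB was above the floor in the PEN library alone, at 6.7. Leucocyte markers were above the floor for PTPRC only, of 5, endothelial markers for none of 4 and cholangiocyte markers for 2 of 5.

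SNU398 cells carried transcripts of most HOX genes. Of the 39, 33 were above the floor in at least 1 library and 32 in all 4, and 26 passed the filter of a mean of 50 or more. HOXB5, a central gene, was the one that crossed the floor, at 12.0 in PEN-FFW, 7.0 in PEN-WT, the floor in PEN-MUT and 7.6 in PEN cells. It rested on 13 reads in the PEN-FFW library and on 9 each in the PEN-WT and PEN libraries. HOXA4, HOXA9, HOXA10, HOXB1, HOXD3 and HOXD4 were at the floor in every library, which at this depth allows only a few reads assigned to each. HOXA4 shares 31.3%, HOXA9 15.9% and HOXA10 9.9% of their exons with other transcripts of their strand. HOXB1 and HOXD4 share none on either strand. HOXD3 shares none on its own strand but 14.1% with transcripts of the other strand, and the strand setting of the counting is not known. For genes with shared exons the floor bounds the reads assigned and not the transcript level. In bulk RNA, fewer cells with a transcript and less of it per cell cannot be told apart. The genes at the floor lay beside detected ones. HOXA9 and HOXA10 sat between HOXA7 and HOXA11, which were both detected, and HOXD3 and HOXD4 lay between HOXD1 and HOXD8.

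The clusters differed in how many members were detected. In cluster C, on chromosome 12, all 9 genes were above the floor and 8 passed the filter. In cluster B, on chromosome 17, 9 of 10 were above the floor and 8 passed. In cluster A, on chromosome 7, 8 of 11 were above it and 5 passed, and in cluster D, on chromosome 2, 7 of 9 and 5. By position in the cluster, 6 of 8 anterior genes (paralogue groups 1 to 3), 13 of 15 central genes (groups 4 to 8) and 14 of 16 posterior genes (groups 9 to 13) were above the floor. All 4 genes of group 13 and all 3 of group 8 were detected.

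**Figure D1:**
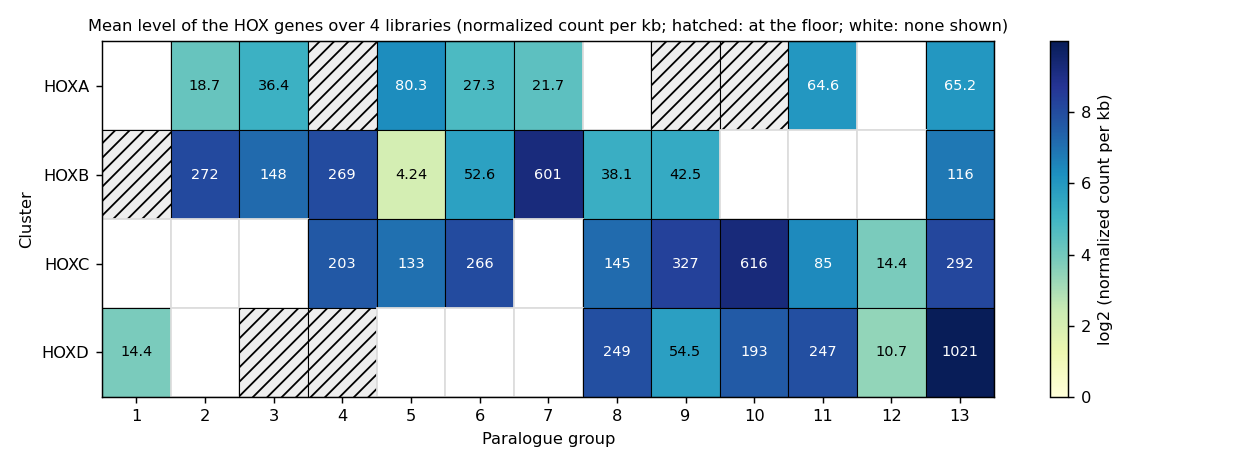
Mean normalized count per kilobase of transcript over the 4 libraries, with the 4 clusters in rows and the paralogue groups 1 to 13 in columns; darker cells are higher on a log2 colour scale, hatched cells were at the floor in all libraries and white cells show none. HOXD13 stands highest at 1021, clusters B and C are filled nearly throughout, and the 6 genes at the floor fall in clusters A, B and D.

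Per kilobase of the canonical transcript, which makes levels of genes comparable, HOXD13 was highest at a mean normalized count of 1021 per kb. It encodes the factor that shapes the digits and lies at chr2:176957449-176960672 (GRCh37). HOXC10, which acts in the lumbar spinal cord and hindlimb in mice, followed at 615.5 per kb, and HOXB7 at 601 per kb. HOXC9, HOXC13, HOXB2, HOXB4, HOXC6, HOXD8, HOXD11 and HOXC4 came next, between 203.5 and 327 per kb. When all exons of a gene were used as its length, HOXD13 kept the first place and HOXC10 and HOXB7 exchanged places. HOXC6, whose mean per kb was 266, then had 127 and moved to rank 13 of the HOX genes, and HOXC4 had 126 and rank 14. In reads, HOXD13 made up 19.4% (95% exact interval 18.6 to 20.1) of all HOX reads in PEN-FFW, 18.5% (17.9 to 19.1) in PEN-WT, 20.4% (19.7 to 21.1) in PEN-MUT and 22.8% (22.1 to 23.5) in PEN. Posterior genes together held 57.3% of HOX reads in PEN-FFW, 57.1% in PEN-WT, 57.9% in PEN-MUT and 59.2% in PEN, so their share varied little.

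All HOX genes together took 394.7 of every 1000000 reads (95% exact interval 387 to 402) in PEN-FFW, 422 (415 to 428) in PEN-WT, 396 (389 to 403) in PEN-MUT and 399 (392.3 to 405) in PEN. The PEN-WT library was thus highest, and its counting interval did not overlap the other 3, which overlapped each other. By cluster, C held 32.2% of HOX reads in PEN-FFW, 34.9% in PEN-WT, 33.2% in PEN-MUT and 33.0% in PEN. Cluster D, with HOXD13, held 33.1% in PEN-FFW, 31.0% in PEN-WT, 33.5% in PEN-MUT and 35.4% in PEN. Cluster B held 25.4% in PEN-FFW, 24.6% in PEN-WT, 24.5% in PEN-MUT and 22.6% in PEN, and cluster A between 8.70% and 9.499% in each.

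The values of single genes that follow are as deposited, a scaling that left PEN-FFW below the other libraries. The median log2 difference over the compared genes, subtracted from each difference, was -0.27 against PEN, -0.30 against PEN-MUT and -0.30 against PEN-WT. Median shifts of the other pairs were 0.03 or less in size. Statements on which library was highest or lowest for a gene that passed the filter are therefore relative to the median level in each library. That level, over the compared genes, was 945 in PEN-FFW, 1154 in PEN-WT, 1136 in PEN-MUT and 1125 in PEN. This centring is not that of the differences, so near ties can be ordered otherwise by the differences.

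Cluster A was the weakest in reads. HOXA3, needed for thymus and parathyroid in mice, had 117 in PEN-FFW, 110.2 in PEN-WT, 101 in PEN-MUT and 112 in PEN cells. HOXA5, which acts in lung development in mice, had 101 in PEN-FFW, 168.4 in PEN-WT, 123 in PEN-MUT and 144 in PEN cells. Relative to the median gene, PEN-FFW was highest for HOXA3. For HOXA5, PEN-FFW and PEN-MUT were nearly tied as lowest, with a difference of PEN-FFW from PEN-MUT of 0.03 ± 0.17 (interval -0.38 to 0.39). HOXA11, a gene of the forearm, kidney and uterus, had 131 in PEN-FFW, 207 in PEN-WT, 170 in PEN-MUT and 181 in PEN cells. HOXA13, the distal limb and urogenital member, had 297 in PEN-FFW, 369 in PEN-WT, 336 in PEN-MUT and 306 in PEN cells. Of these 2 posterior genes, HOXA11 was highest in PEN-WT. For HOXA13, PEN-WT and PEN-FFW were level at the top, with a difference of PEN-FFW from PEN-WT of -0.0005 ± 0.10 (interval -0.22 to 0.20). Set against genes of like GC content, that HOXA13 difference was 0.04.

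In cluster B, HOXB7 had the most reads. HOXB2 and HOXB3 pattern the hindbrain. HOXB2 had 378 in PEN-FFW, 515 in PEN-WT, 448 in PEN-MUT and 489.6 in PEN cells, and HOXB3 had 481 in PEN-FFW, 552 in PEN-WT, 475 in PEN-MUT and 446 in PEN cells. HOXB4, known for expanding blood stem cells, had 463 in PEN-FFW, 591.5 in PEN-WT, 581 in PEN-MUT and 516 in PEN cells. Relative to the median gene, PEN-WT was highest for HOXB2 and HOXB4 and PEN-FFW for HOXB3, while PEN-MUT was lowest for HOXB2 and PEN for HOXB3 and HOXB4. HOXB6, a trunk gene, had 73.9 in PEN-FFW, 93.9 in PEN-WT, 86 in PEN-MUT and 99.1 in PEN cells. HOXB7, often high in carcinomas, had 665 in PEN-FFW, 869 in PEN-WT, 941 in PEN-MUT and 801 in PEN cells. HOXB8, whose forced expression holds myeloid precursors in an immature state, had 60.01 in PEN-FFW, 119 in PEN-WT, 68 in PEN-MUT and 84.8 in PEN cells. PEN-WT stood above the others for HOXB8, while PEN-MUT was highest for HOXB7. HOXB9, which acts in the thorax, had 91.4 in PEN-FFW, 133.5 in PEN-WT, 95 in PEN-MUT and 120.1 in PEN cells. HOXB13, the prostate member and a partner of the androgen receptor, had 306.5 in PEN-FFW, 397 in PEN-WT, 415 in PEN-MUT and 292 in PEN cells. Relative to the median gene, HOXB13 was lowest in PEN and highest in PEN-MUT, and its PEN-FFW level lay nearer to those of PEN-WT and PEN-MUT than to that of PEN.

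Cluster C was detected throughout. HOXC4 had 275 in PEN-FFW, 390.5 in PEN-WT, 371 in PEN-MUT and 353.5 in PEN cells, HOXC5 had 183 in PEN-FFW, 246 in PEN-WT, 214 in PEN-MUT and 215 in PEN cells, and HOXC6 had 362 in PEN-FFW, 540.3 in PEN-WT, 449 in PEN-MUT and 403 in PEN cells. These are central genes of the neck and upper trunk, and relative to the median gene all 3 were highest in PEN-WT, with HOXC4 lowest in PEN-FFW, HOXC5 in PEN-MUT and HOXC6 in PEN. HOXC8, which assigns motor neurons to muscles of the forelimb in mice, had 283 in PEN-FFW, 404 in PEN-WT, 346 in PEN-MUT and 369 in PEN cells. HOXC9, which sets thoracic motor neuron identity, had 393 in PEN-FFW, 540.3 in PEN-WT, 472 in PEN-MUT and 525 in PEN cells. HOXC10 had 976 in PEN-FFW, 1335 in PEN-WT, 1309 in PEN-MUT and 1245 in PEN cells. PEN-WT was again highest in each, with HOXC8 and HOXC10 lowest in PEN-FFW and HOXC9 in PEN-MUT. Some of these places are near ties. PEN-WT differed from PEN by 0.01 ± 0.08 for HOXC9, and from PEN-MUT by 0.03 ± 0.05 for HOXC10. For HOXC8, PEN-FFW differed from PEN-MUT by 0.02 ± 0.11, so which was lowest depends on the centring. HOXC11, a posterior gene, had 206 in PEN-FFW, 318 in PEN-WT, 292 in PEN-MUT and 292 in PEN cells. HOXC13, a factor of hair and nail, had 490.2 in PEN-FFW, 813.5 in PEN-WT, 719 in PEN-MUT and 727 in PEN cells. Both were highest in PEN-WT and lowest in PEN-FFW. All 8 genes of cluster C that passed the filter were thus highest in PEN-WT. Relative to the median level in each library, 5 of the 8 were lowest in PEN-FFW, the near tie of HOXC8 among them. As deposited, all 8 were lowest in PEN-FFW.

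In cluster D, HOXD13 exceeded every other member. HOXD8, a trunk gene, had 500.4 in PEN-FFW, 672 in PEN-WT, 738 in PEN-MUT and 699 in PEN cells, and HOXD9 had 136 in PEN-FFW, 94.7 in PEN-WT, 84 in PEN-MUT and 93.2 in PEN cells. HOXD9 acts in the lumbar region and hindlimb in mice, and its PEN-FFW value lay above the other 3, which were close together. HOXD10, a hindlimb gene in mice, had 328 in PEN-FFW, 383 in PEN-WT, 341 in PEN-MUT and 330.0 in PEN cells, and HOXD11, a forearm gene that acts with HOXA11, had 349.9 in PEN-FFW, 463 in PEN-WT, 448 in PEN-MUT and 419.9 in PEN cells. HOXD13 had 1932 in PEN-FFW, 2468.5 in PEN-WT, 2588 in PEN-MUT and 2881 in PEN cells. HOXD13 was highest in PEN and lowest in PEN-FFW, and PEN-WT lay below PEN-MUT.

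**Figure D2:**
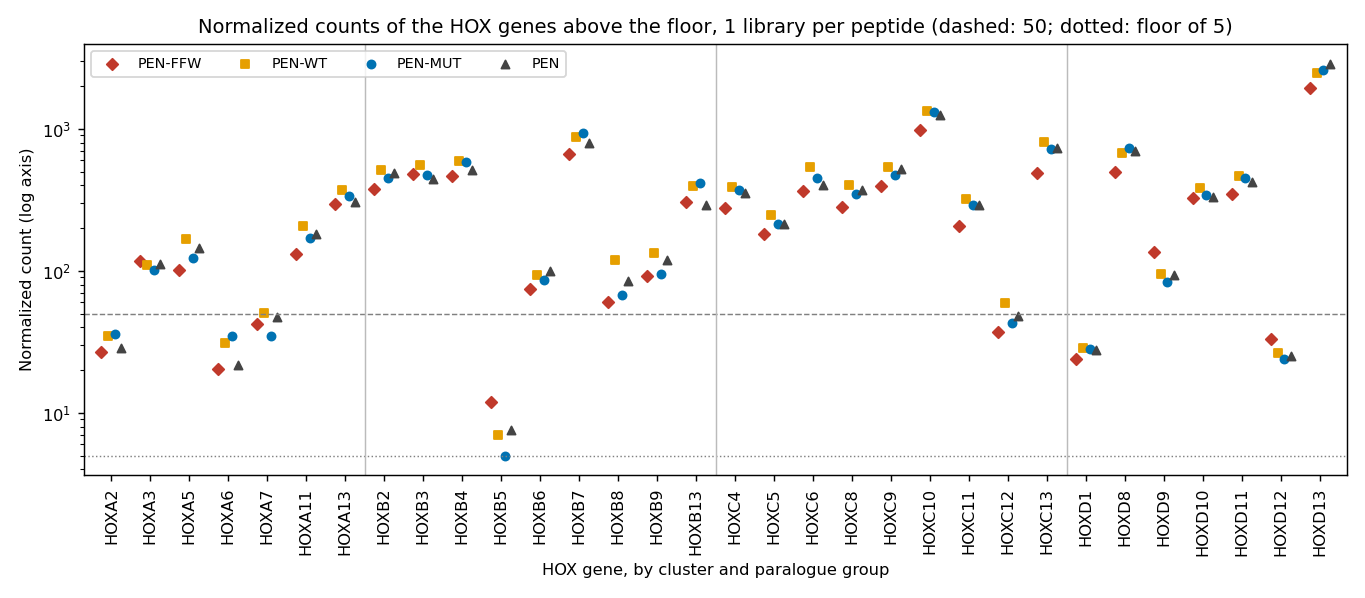
Normalized counts (log axis) of 32 HOX genes above the floor, by cluster and paralogue group, with 1 point per library; the dashed line marks 50 and the dotted line the floor of 5. The 4 libraries lie close together for nearly all genes, PEN-FFW points are mostly lowest as deposited, and HOXD9 is an exception with 136 in PEN-FFW.

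Among the 4 libraries, relative to the median level in each, PEN-WT held the highest level of 16 of the 26 HOX genes and the lowest of none. Over all compared genes, PEN-WT was highest in 14.7% and lowest in 15.6%. PEN-FFW was highest in 4 of the 26 (HOXA3, HOXB3, HOXD9 and HOXD10) and lowest in 12, against 31.7% and 39.5% of all compared genes. Of those 12, HOXA5, HOXB7, HOXC8 and HOXD11 were not lowest in PEN-FFW by the differences. For HOXA5 and HOXC8, PEN-FFW differed from PEN-MUT by 0.03 and 0.02, and for HOXB7 and HOXD11 from PEN by 0.004 and 0.01. PEN-MUT was highest in 3 and lowest in 8, against 26.98% and 19.3%, and PEN was highest in 3 and lowest in 6, against 26.6% and 25.6%. As deposited, PEN-WT was highest in 18 of 26 HOX genes and in 32.6% of all compared genes, and when scaled by total reads in 15 of 26 and 17.6%. Many of these places rest on differences within counting error. For PEN-WT against PEN, 6 of the 26 counting intervals lay above 0, 1 below, and 19 included 0. For PEN-WT against PEN-MUT, 10 lay above 0, 0 below, and 16 included 0. PEN-WT was also the deepest library, and the part of depth in this order was not tested.

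PEN-FFW against PEN compares the engineered peptide with its carrier. HOXD9 was higher in PEN-FFW, and HOXD13 and HOXC13 were lower, while most HOX genes lay within a narrow band around the median gene. Of the 26 genes, 11 were above and 15 below the median compared gene (background 50%), and as deposited 4 were above 0 and 22 below. The median HOX difference was -0.08, with quartiles of -0.17 and 0.12. At least 1.5-fold higher was 1 of 26, where 7.24% of all compared genes were, and at least 1.5-fold lower was none, where 0.437% were. The HOX share past this fold is thus no larger than that of all genes.

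HOXD9, at chr2:176987447-176989665 (GRCh37), was the gene past that fold. It had 147 reads in PEN-FFW against 111 in PEN, a difference of 0.77 ± 0.17 (interval 0.45 to 1.18). Against PEN-MUT, with 84 reads, the difference was 0.93 ± 0.18 (interval 0.59 to 1.39). Against PEN-WT, with 122 reads, it was 0.78 ± 0.16 (interval 0.46 to 1.18). HOXD9 also has the highest GC content of the 26, 62.6% of its canonical transcript, and higher GC went with higher values in PEN-FFW across all genes (Spearman rho 0.371 over 11225 genes of these 2 libraries, against 0.227 over the 26 HOX genes). Set against genes of like GC content, its difference from PEN was 0.56, against genes of similar abundance 0.49 and as deposited 0.50, all under the 1.5-fold mark. Against PEN-MUT it was 0.77 at like GC content, 0.68 at similar abundance and 0.63 as deposited, all past that mark, and against PEN-WT 0.68, 0.55 and 0.48. HOXD11, with nearly the same GC content (62.6%), differed from PEN by 0.01 ± 0.10, and by -0.20 when set against genes of like GC content. The part of GC content in the HOXD9 difference was not tested. The sign of the HOXD9 difference was the same under all settings, against each of the other 3 libraries. HOXD12, a gene of low level in the same cluster, had 33.2 in PEN-FFW, 26.4 in PEN-WT, 24 in PEN-MUT and 25.2 in PEN cells, with PEN-FFW highest as well. It rested on 36 reads in PEN-FFW and 30 in PEN, and its interval included 0 (-0.07 to 1.42). Of the genes next to HOXD9, HOXD10 differed from PEN by 0.26 ± 0.10 and HOXD8 by -0.20 ± 0.08 in PEN-FFW.

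HOXB3 and HOXB13 were also higher in PEN-FFW than in PEN, by 0.38 ± 0.09 (interval 0.20 to 0.56) and 0.34 ± 0.11 (interval 0.12 to 0.56). HOXA3, with 0.33 ± 0.16, had an interval that included 0 (-0.02 to 0.70). On the lower side, HOXD13 differed by -0.30 ± 0.04 (interval -0.39 to -0.23), HOXC13 by -0.29 ± 0.08 (interval -0.46 to -0.14) and HOXD8 by -0.20 ± 0.08 (interval -0.37 to -0.05). Each of these is under 1.5-fold.

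RNAs known to stay in the nucleus were high in the PEN-FFW library. Of 6 nuclear RNAs listed, 5 were in the table and all 5 above the floor. Their summed normalized count was 72180 in PEN-FFW, 57772 in PEN-WT, 46034 in PEN-MUT and 56190 in PEN. Most of each sum is MALAT1, with 60477 in PEN-FFW, 48373 in PEN-WT, 38131 in PEN-MUT and 47717 in PEN. In PEN-FFW against PEN, 3 of the 4 that passed the filter were 1.5-fold higher (background 7.24%), and the lowest difference was 0.24. MALAT1 differed from PEN by 0.61 ± 0.01, NEAT1 by 1.08 ± 0.05 and KCNQ1OT1 by 1.66 ± 0.04 in PEN-FFW. A fibroblast marker, COL1A1, was also higher, by 1.02 ± 0.14. Of the 5 fibroblast markers that passed the filter, 2 were above the median gene and 3 below, with a median of -0.18. The 7 fibroblast markers together summed to 85978 in PEN-FFW, 95512 in PEN-WT, 100598 in PEN-MUT and 95135 in PEN. These sums are as deposited, a scale on which the median gene of PEN-FFW lies lower, so they cannot be set against the centred differences. The part of these in the HOX values was not tested.

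Against PEN-MUT, PEN-FFW had 13 HOX genes above and 13 below the median gene (background 50%), with a median of 0.01 and quartiles of -0.12 and 0.12. As deposited, 3 were above 0 and 23 below, and relative to genes of similar abundance 5 and 21. HOXD9 was again the one gene at least 1.5-fold higher, against 7.24% of all compared genes, and none was as much lower, against 0.0875%. HOXA3 was higher by 0.50 ± 0.18 (interval 0.12 to 0.90) and HOXB3 by 0.32 ± 0.09 (interval 0.13 to 0.50). The lowest were HOXD8, with -0.25 ± 0.08 (interval -0.43 to -0.10), and HOXC13, with -0.25 ± 0.08 (interval -0.42 to -0.09). HOXB13, which stood apart from PEN, differed from PEN-MUT by -0.13 ± 0.10 (interval -0.35 to 0.07).

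**Figure D3:**
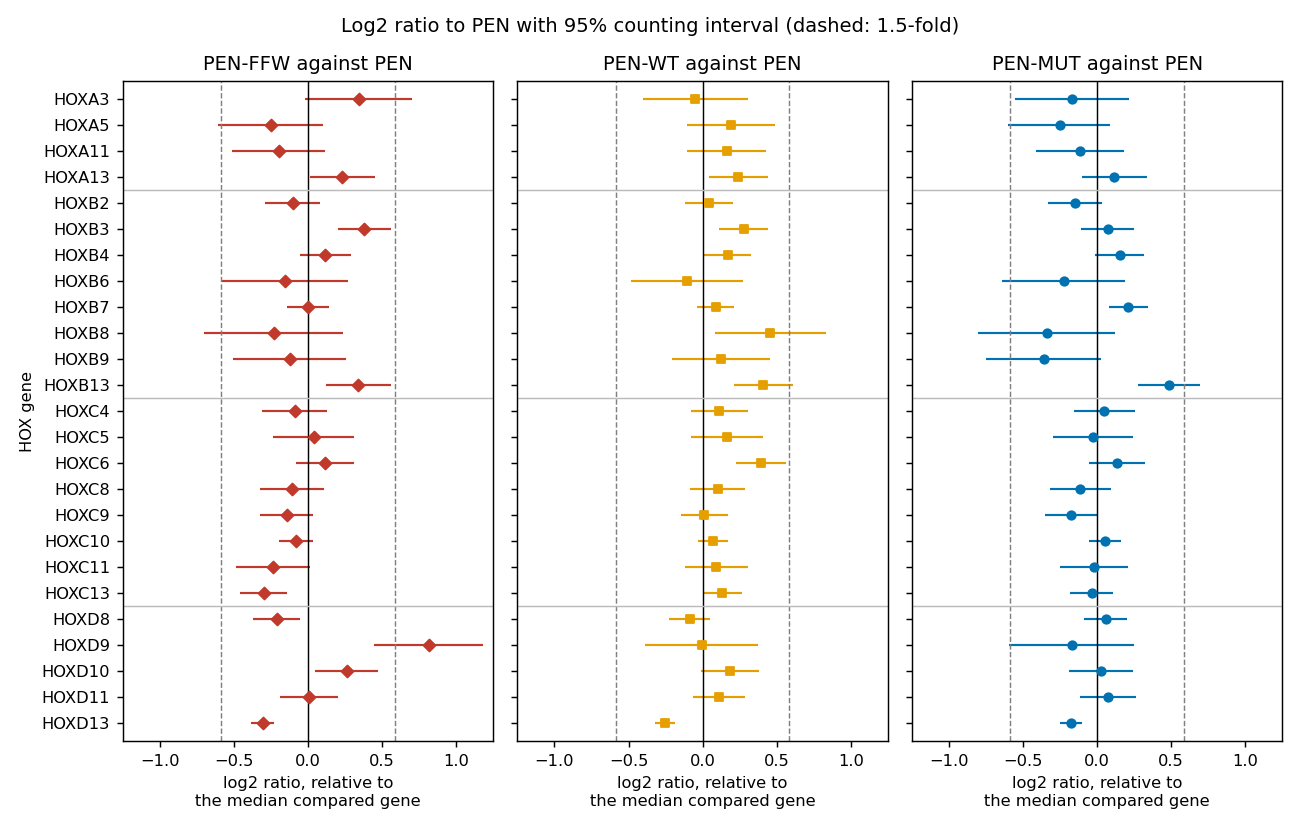
Log2 ratio of each peptide library to PEN for 25 of the 26 HOX genes, relative to the median compared gene, with exact 95% counting intervals; the PEN-FFW panel is on the left, the PEN-WT panel in the middle and the PEN-MUT panel on the right, with dashed lines at 1.5-fold. HOXD9 stands to the right in PEN-FFW only, HOXB13 lies to the right and HOXD13 to the left of 0 in all 3 panels, which share the PEN library.

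PEN-WT against PEN compares the SALL4-derived peptide with its carrier. HOX genes lay on the higher side in PEN-WT in small steps, with 20 of 26 above the median gene and 6 below (background 50%). The median HOX difference was 0.11, with quartiles of 0.02 and 0.17. None was 1.5-fold higher (0.827% of all compared genes) or 1.5-fold lower (0.374%). HOXB8 was highest, with 0.41 ± 0.17 (interval 0.08 to 0.83). HOXB13 followed with 0.40 ± 0.10 (interval 0.21 to 0.61), HOXC6 with 0.38 ± 0.08 (interval 0.22 to 0.56) and HOXB3 with 0.27 ± 0.08 (interval 0.11 to 0.44). HOXD13 was the lowest, with -0.25 ± 0.04 (interval -0.32 to -0.18). All 8 genes of cluster C were above the median gene, with a median of 0.10, whereas in cluster D 2 of 5 were, with a median of -0.01.

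Against PEN-MUT, the closest control in design, PEN-WT had 22 HOX genes above and 4 below the median gene (background 50%), with a median of 0.15 and quartiles of 0.05 and 0.21. HOXB8, at chr17:46688739-46692654 (GRCh37), was the one gene at least 1.5-fold higher, where 0.898% of all compared genes were, and none was as much lower (0.0159%). It had 153 reads in PEN-WT against 68 in PEN-MUT, a difference of 0.72 ± 0.19 (interval 0.38 to 1.24). With a pseudocount of 50 in place of 10 the HOXB8 difference was 0.52, under that mark. HOXB9 was next, with 0.45 ± 0.17 (interval 0.12 to 0.87), and then HOXA5, with 0.42 ± 0.15 (interval 0.13 to 0.78). HOXC6 differed by 0.26 ± 0.09 (interval 0.09 to 0.44). The 4 genes below the median were HOXB7, HOXB13, HOXD8 and HOXD13, with differences between -0.13 and -0.06. All 8 genes of cluster C and all 5 of cluster A were above it, with medians of 0.18 and 0.14. Set against genes of like GC content, the split was 17 above and 9 below against PEN, and 20 and 6 against PEN-MUT.

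PEN-FFW against PEN-WT compares the engineered with the native peptide at the same dose and time. HOX genes were mostly lower in PEN-FFW, with 4 above and 22 below the median gene (background 50%), a median of -0.13 and quartiles of -0.25 and -0.05. All 8 genes of cluster C and all 10 central genes were below it, with medians of -0.19 and -0.15. At least 1.5-fold higher was 1 of 26, HOXD9, against 4.17% of all compared genes, and none was as much lower, against 0.0318%. HOXB8 lay just inside that mark, with -0.58 ± 0.19 (interval -1.13 to -0.26), from 65 reads in PEN-FFW and 153 in PEN-WT. HOXC13 differed by -0.42 ± 0.08 (interval -0.58 to -0.28) and HOXA5 by -0.39 ± 0.16 (interval -0.79 to -0.10). On the higher side, HOXA3 had 0.38 ± 0.16 (interval 0.03 to 0.75). HOXD13, the most abundant gene, had -0.05 ± 0.04 (interval -0.13 to 0.03).

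PEN-MUT against PEN sets the mutated control against the carrier and shows how far control libraries lay apart. There were 11 HOX genes above and 15 below the median gene (background 50%), with a median of -0.03 and quartiles of -0.17 and 0.07. None was 1.5-fold higher (0.215% of all compared genes) or lower (0.35%). HOXB13 was highest, with 0.47 ± 0.10 (interval 0.28 to 0.69), from 415 reads in PEN-MUT and 348 in PEN. HOXB7 differed by 0.21 ± 0.07 (interval 0.08 to 0.34) and HOXD13 by -0.18 ± 0.04 (interval -0.25 to -0.10). HOXB9 was lowest, with -0.33 ± 0.17 and an interval that included 0 (-0.75 to 0.03). HOXB13 thus lay as far apart between these control libraries as between PEN-WT or PEN-FFW and PEN.

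**Figure D4:**
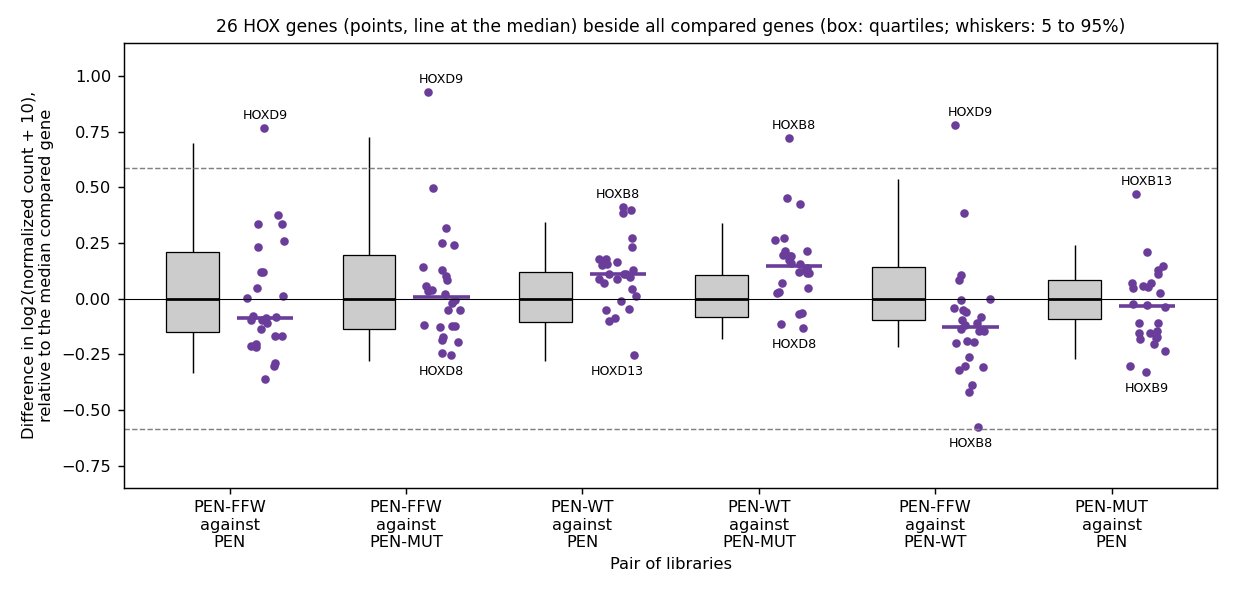
Differences in log2(normalized count + 10) relative to the median compared gene for the 6 pairs of libraries; points are the 26 HOX genes with a line at their median, grey boxes show quartiles and whiskers the 5th to 95th percentile of all 12578 compared genes, and dashed lines mark 1.5-fold. HOX medians lie above 0 for PEN-WT against PEN (0.11) and PEN-MUT (0.15) and below it for PEN-FFW against PEN-WT (-0.13), and HOXD9 and HOXB8 are the points past 1.5-fold.

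The 7 HOX genes between the floor and the filter were HOXA2, HOXA6, HOXA7, HOXB5, HOXC12, HOXD1 and HOXD12. HOXA2, which patterns the hindbrain and the second pharyngeal arch, had 26.8 in PEN-FFW, 34.9 in PEN-WT, 36 in PEN-MUT and 28.6 in PEN cells. HOXC12, a posterior gene, had 36.9 in PEN-FFW, 59.8 in PEN-WT, 43 in PEN-MUT and 47.9 in PEN cells, with PEN-WT highest as deposited. HOXA7, a trunk gene, had 42.5 in PEN-FFW, 50.5 in PEN-WT, 35 in PEN-MUT and 47.03 in PEN cells. HOXA6, its neighbour, had 20.3 in PEN-FFW, 31.1 in PEN-WT, 35 in PEN-MUT and 21.8 in PEN cells. The anterior gene HOXD1 had 24.00 in PEN-FFW, 28.7 in PEN-WT, 28 in PEN-MUT and 27.7 in PEN cells. These rest on few reads, and for 3 of them an RNA of the other strand covers much of the exons: HOXA-AS3 covers 62.5% of HOXA7 and lies over part of the 39.3% of HOXA6 that is shared, and HAGLR lies over part of the 60.1% of HOXD1 that is shared. HOXA11 shares 27.2% of its exons with HOXA11-AS on the other strand. HOXC4 and HOXC6 share exon sequence on the same strand (17.5% and 16.1%), as do HOXD10 and HOXD11 (18.2% and 21.4%), and 67.3% of HOXC5 is shared with other transcripts of its strand. The strand setting of the counting is not given in the sources used here, so these reads cannot be told apart.

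Of 18 noncoding or readthrough rows within the clusters, 10 were above the floor and 4 passed the filter. HOTAIR, the cluster C RNA known for binding Polycomb, had 50.8 in PEN-FFW, 59.8 in PEN-WT, 52 in PEN-MUT and 53.7 in PEN cells. HOTAIRM1, in cluster A, had 74.8 in PEN-FFW, 90.05 in PEN-WT, 84 in PEN-MUT and 101 in PEN cells, and HOXD-AS1 had 76.6 in PEN-FFW, 105 in PEN-WT, 100 in PEN-MUT and 94.1 in PEN cells. For these 3 the counting intervals against PEN included 0 for each of the other peptides. HOXC-AS5 had 46.2 in PEN-FFW, 83.1 in PEN-WT, 82 in PEN-MUT and 79.8 in PEN cells, a difference of -0.41 ± 0.21 in PEN-FFW against PEN (interval -1.04 to -0.01). HOTTIP, the RNA beyond HOXA13 that recruits MLL complexes, had 46.2 in PEN-FFW, 55.1 in PEN-WT, 45 in PEN-MUT and 29.4 in PEN cells. HOXA11-AS had 33.2 in PEN-FFW, 29.5 in PEN-WT, 34 in PEN-MUT and 20.99 in PEN cells, HOXA-AS3 6.46 in PEN-FFW, 17.1 in PEN-WT, 14 in PEN-MUT and 13.4 in PEN cells and HOXB-AS3 12.9 in PEN-FFW, 11.6 in PEN-WT, 12 in PEN-MUT and 11.8 in PEN cells. MIR10A and MIR196A2 were above the floor in 1 library each.

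Among proteins that bind DNA with HOX factors, all 9 TALE genes were above the floor and 8 passed the filter, none 1.5-fold apart in PEN-FFW or PEN-WT against PEN. Of all compared genes, 7.24% were that much higher and 0.437% lower in PEN-FFW. In PEN-WT it was 0.827% higher and 0.374% lower, so none of 8 is near the background. The TALE median was 0.05 in PEN-FFW against PEN, and 0.14 in PEN-WT against PEN. PBX3 had 842 in PEN-FFW, 1182 in PEN-WT, 1087 in PEN-MUT and 979 in PEN cells. It differed from PEN by 0.05 ± 0.06 in PEN-FFW and 0.24 ± 0.06 in PEN-WT. In PEN-FFW against PEN, MEIS3 had 0.11 ± 0.06 and PBX4 0.38 ± 0.19.

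Polycomb genes, the repressors of HOX clusters, all passed the filter. Of these 27, none was 1.5-fold apart between PEN-FFW and PEN, where 7.24% of all compared genes were higher and 0.437% lower by that much. Above the median gene were 17 of 27 (background 50%), with a median of 0.05. PCGF2, a PRC1 subunit, had 265 in PEN-FFW, 229.8 in PEN-WT, 187 in PEN-MUT and 220.0 in PEN cells, which put PEN-FFW at 0.53 ± 0.12 against PEN and at 0.78 ± 0.13 against PEN-MUT. In PEN-FFW against PEN, EZH1, an H3K27 methyltransferase, had 0.45 ± 0.08, CBX7, a reader of that mark, 0.44 ± 0.14, and PHF1, a PRC2 partner, 0.32 ± 0.06.

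Trithorax genes, which keep HOX genes active, included 4 of 17 that stood 1.5-fold or more above PEN in the PEN-FFW library and none as far below, with a list median of 0.07, where 7.24% and 0.437% of all compared genes were past these marks. MLL, the symbol under which the table lists KMT2A, had 6755 in PEN-FFW, 5154 in PEN-WT, 3929 in PEN-MUT and 4129.9 in PEN cells, a difference of 0.98 ± 0.03. MLL2 had 8994 in PEN-FFW, 4605.5 in PEN-WT, 3077 in PEN-MUT and 3559 in PEN cells (1.61 ± 0.03) and MLL4 3626 in PEN-FFW, 2862 in PEN-WT, 2010 in PEN-MUT and 2236 in PEN cells (0.97 ± 0.04), a pair of symbols that were used for both KMT2B and KMT2D. KDM6B, which removes H3K27 methylation, had 633 in PEN-FFW, 356 in PEN-WT, 212 in PEN-MUT and 273 in PEN cells, a difference of 1.46 ± 0.09. In PEN-WT against PEN none of the 17 was past 1.5-fold (0.827% of all compared genes were higher and 0.374% lower), and these 4 genes had differences between 0.29 and 0.34. The median HOX gene stood at -0.08 in PEN-FFW against PEN. A relation between these 4 genes, the farthest from PEN in their list, and the HOX values was not tested.

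Of 16 retinoid signalling genes, 14 were above the floor and 9 passed the filter, with none 1.5-fold apart in PEN-FFW (background 7.24% higher and 0.437% lower) or PEN-WT (0.827% and 0.374%) against PEN. For 9 genes this is near the background. RARA, a retinoic acid receptor, had 576 in PEN-FFW, 679 in PEN-WT, 587 in PEN-MUT and 588 in PEN cells (0.24 ± 0.08 in PEN-FFW against PEN). CYP26B1, which degrades retinoic acid, had 0.30 ± 0.14, and ALDH1A2 and ALDH1A3, which make it, had -0.30 ± 0.15 and -0.24 ± 0.10.

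The 26 HOX genes were of lower abundance than the compared genes as a whole, with a median normalized count of 349 against 1091, and of higher GC content, with a median of 54.2% against 48.2%. Across all genes the PEN-WT difference from PEN went with GC content (Spearman rho 0.357 over 11225 genes), whereas across the 26 HOX genes it did not (rho -0.04). Its relation with abundance was -0.20 over 12578 genes and -0.13 over the 26. In pairs with PEN-MUT the relation with abundance over the 26 HOX genes was stronger, -0.50 for PEN-WT against PEN-MUT (all compared genes -0.20), -0.58 for PEN-FFW against PEN-MUT (-0.38) and 0.56 for PEN-MUT against PEN (-0.009). These 3 share the PEN-MUT library. Genes of 1 cluster share neighbouring DNA and every point shares the same libraries, so these are descriptions of the libraries.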

How the data were processed

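RNA was sequenced from SNU398 cells after 30 µM peptide for 8 hours, 1 library per peptide. Per the labels, paired reads were placed on hg19. The submitters' processing notes name STAR 2.4.0i and featureCounts 1.5.0-p1, a read counter. Annotation, strand setting and normalization method are not stated in those notes or labels. The authors deposited log2 values for 23710 genes with 2.32 (log2 of 5) as the lowest. Undoing the log2 gave whole multiples of 0.923 in PEN-FFW, 0.776 in PEN-WT, 1 in PEN-MUT and 0.840 in PEN for 100% of values above that floor (tolerance 0.1 read), so the reads were recovered by division.

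The 3 chromatin samples are not analysed here. Genes with a mean of at least 50 normalized counts were kept (12578, or 53.0%), and differences were taken in log2(normalized count + 10) minus the median gene's. Because the values were log2, the planned rule for normalized counts was applied after the log was undone. No p-value was computed. The count of genes with 1 library highest was chosen after seeing the data. Python 3.11.15, numpy 2.4.6, pandas 2.3.3 and scipy 1.17.1 were used, and the code was tested on simulated data. Gene positions, GC content and lengths came from GENCODE 44 on GRCh37, promoters from RefSeq on GRCh38.p14.

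The HOX genes past the filter are named with every value, and from each other list at most 4 members, those farthest from PEN in PEN-FFW. Of the genes these rules name, 3 are not reported here, and counts and medians include them. Members and lists were chosen with earlier results of these data known. Alternatives changed the pseudocount, the filter, the scaling, and the genes of similar GC content or abundance set beside a gene.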

Additional observations from a re-analysis of the deposited data

How the results depend on the processing

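No paired analysis was possible because each peptide had 1 library, and for the same reason no library could be left out. Counting intervals and standard errors cover read counting only. Over 10 alternative settings, 1461 single-gene differences stayed within the counting error of the reported value, 57 moved beyond it and 0 of those past 1.5-fold changed sign. As deposited, without centring on the median gene, the median HOX difference was -0.36 for PEN-FFW against PEN, -0.29 against PEN-MUT and -0.43 against PEN-WT, because the median gene itself lies lower there. For PEN-FFW against PEN, the count of HOX genes 1.5-fold higher was 0 with a minimum mean of 200, as deposited, and set against genes of like GC content or abundance, and the count lower was 1 as deposited. For PEN-FFW against PEN-MUT, the count higher was 2 with no filter (33 genes) and 0 with the minimum of 200, which leaves out HOXD9. For PEN-WT against PEN-MUT it was 0 with a pseudocount of 50 or the minimum of 200, which leaves out HOXB8. For PEN-FFW against PEN-WT, the count lower was 6 as deposited and 1 with a pseudocount of 1, no filter, median-ratio scaling, scaling by total reads, the trimmed mean of log ratios, like GC content or similar abundance. The count higher there was 2 with no filter, and 0 with the minimum of 200, as deposited and for similar abundance. PEN-WT was highest in 15 to 18 of 26 HOX genes under other pseudocounts and scalings, and in 12 of 19 with the minimum of 200. HOX genes above the floor in at least 1 library numbered 33. Those above 50 normalized counts in a single library numbered 28 in PEN-WT and 26 in each of PEN-FFW, PEN-MUT and PEN.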

Other observations

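Relatives of the HOX family outside the clusters were mostly at the floor. Of 13 listed, 5 were above it and 4 passed the filter. MEOX2, a homeobox gene of somites and vessels, had 907.5 in PEN-FFW, 1117 in PEN-WT, 1123 in PEN-MUT and 1446 in PEN cells, which placed PEN-FFW at -0.40 ± 0.06, PEN-WT at -0.40 ± 0.05 and PEN-MUT at -0.38 ± 0.05 against PEN. GBX2, a gene of the midbrain-hindbrain boundary, had 221 in PEN-FFW, 263 in PEN-WT, 276 in PEN-MUT and 356 in PEN cells, so that PEN-FFW stood at -0.40 ± 0.11, PEN-WT at -0.45 ± 0.10 and PEN-MUT at -0.38 ± 0.11 against PEN. For both, PEN lay above the other 3 libraries, which share it in these differences. CDX2, an intestinal regulator that acts on HOX genes in mice, had 224 in PEN-FFW, 306 in PEN-WT, 320 in PEN-MUT and 325 in PEN cells. MNX1, a motor neuron and pancreas gene, had 176 in PEN-FFW, 184 in PEN-WT, 186 in PEN-MUT and 154.5 in PEN cells, and differed from PEN by 0.45 ± 0.14 in PEN-FFW. PDX1, a pancreas regulator, was above the floor in every library, at 18.5 in PEN-FFW, 13.97 in PEN-WT, 12 in PEN-MUT and 11.8 in PEN cells. EVX1 and EVX2, the homeobox genes at the ends of clusters A and D, were at the floor throughout.

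Of 15 listed genes that flank the clusters, 14 were in the table, 10 above the floor and 8 past the filter. In PEN-FFW against PEN, 4 were above and 4 below the median gene (background 50%), with a median of -0.002, and none was 1.5-fold higher or lower, where 7.24% and 0.437% of all compared genes were. MTX2, a mitochondrial import gene beyond cluster D, had 988 in PEN-FFW, 1455 in PEN-WT, 1423 in PEN-MUT and 1617 in PEN cells, a difference of -0.44 ± 0.05 in PEN-FFW against PEN. SNX10, near cluster A, had 53.5 in PEN-FFW, 76.1 in PEN-WT, 81 in PEN-MUT and 103 in PEN cells (-0.56 ± 0.20), and HIBADH, on the other side of that cluster, had 618 in PEN-FFW, 754.5 in PEN-WT, 777 in PEN-MUT and 665 in PEN cells (0.16 ± 0.07). HNRNPA1, beside cluster C, differed from PEN by -0.27 ± 0.06 in PEN-FFW.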
